A study of Mus musculus with 11 samples.

Results

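The genes described here encode the enzyme families that break down foreign compounds: cytochrome P450 families Cyp1 to Cyp4, flavin-containing monooxygenases (Fmo), aldehyde dehydrogenases (Aldh), aldehyde oxidases (Aox), epoxide hydrolases (Ephx), quinone reductases (Nqo), carboxylesterases (Ces), paraoxonases (Pon), glutathione S-transferases (Gst), glucuronosyltransferases (Ugt) and sulfotransferases (Sult). They were chosen by name, from the gene names in the scanner files, and not by their values. The array carried 137 such genes on 198 probes, out of 27666 genes on 41174 probes in all. A gene was kept when a probe was well above background on at least 2 of the 11 arrays, which left 116 of the 137, against 21870 of all genes, and for each gene the probe with the highest mean signal is shown.

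Total RNA of mouse lung was hybridised to single-colour Agilent arrays. The groups were littermate control mice, called wild type here, given saline (3 arrays) or OVA (3 arrays), and mice lacking the transcription factor Foxa3 given saline (2 arrays) or OVA (3 arrays). The labels do not spell out OVA. Strain, age, OVA dose and the deleted part of Foxa3 are not given in the sources used here, nor whether each array is 1 animal, so p-values measure the spread between these samples only.

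Phase I enzymes add or expose a reactive group on a compound, by oxidation (Cyp, Fmo, Aldh, Aox), reduction (Nqo) or hydrolysis (Ephx, Ces, Pon). Phase II enzymes then attach glutathione (Gst), glucuronic acid (Ugt) or sulfate (Sult), which makes the product easier to excrete. In mouse lung, non-ciliated club cells of the airways are rich in P450 enzymes, and the aryl hydrocarbon receptor and the oxidant sensor NRF2 are known regulators of many of these genes.

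Levels are log2 of the background-subtracted signal minus the array's 75th percentile, so 0 is the signal at that percentile. A level can be compared between arrays for a gene but not between genes. The arrays lay on 3 slides, with 1 array of each group on slides 1 and 2, and no knockout saline array on slide 3. Foxa3 itself lay between -6.08 and -5.87 in wild-type saline and between -4.0 and -3.89 in wild-type OVA, and was not well above background on any knockout array. The club cell secretoglobin Scgb1a1 lay between 7.38 and 8.12 on all arrays, which fits the labelled tissue. Wild-type saline 3 stood apart in liver transcripts: albumin (Alb) was 0.38 there and between -6.21 and -3.36 on the other 10 arrays. Results that rest on this array are given with and without it.

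After OVA, more of the enzyme genes fell than rose in wild-type lung. Limma's moderated test with Benjamini-Hochberg adjustment over all 21870 genes called 41 of the 116 lower and 10 higher at an adjusted p under 0.05. Over all genes 7.91% were called lower and 10.9% higher. At an unadjusted p under 0.05 there were 71 of the 116, against 36.5% of all genes. Of the 116 genes, 92 had a difference below 0, with a median of -0.41 against 0.02 over all genes. In 56 genes every OVA array lay below every saline array (20.5% of all genes), and in 15 every OVA array lay above (22.3%). All 51 called genes were among these. The lower calls include Fmo6 and Sult1b1, which passed the filter on dim probes only through their wild-type saline arrays, so that their place among the lower genes was set by the filter. The largest fall was that of the paraoxonase Pon1 (-2.59) and the largest rise that of the retinal dehydrogenase Aldh1a3 (2.93).

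Within slides the wild-type median was -0.51, -0.18 and -0.70 on slides 1, 2 and 3, with 85, 73 and 90 of the 116 genes below 0. With slide as a block, 32 of the 51 calls held. Leaving out 1 array changed the number of calls by more than 1.5 times: 14 genes were called lower when wild-type saline 1 was left out, 8 when wild-type saline 2 was, 23 when wild-type saline 3 was and 11 when wild-type OVA 2 or wild-type OVA 3 was. The higher calls became 5 (wild-type saline 1), 4 (wild-type saline 2 or wild-type OVA 2) and 3 (wild-type OVA 3). Without the 4 arrays of slide 1 none of the 116 was called, with 43 at an unadjusted p under 0.05. Aldh1a2, Aldh1a3, Aldh3a1, Aox3, Ces1g, Ces2e, Cyp1b1, Ephx1, Fmo4 and Gstk1 (10 genes) stayed called in each of the 11 fits that left out 1 array, and each of the other 41 calls was lost without at least 1 array. In whole lung, fewer cells of a type and less RNA per cell cannot be told apart.

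In knockout lung 20 of the 116 genes were called lower and 4 higher after OVA, against 1.78% and 6.46% of all genes, and 62 had an unadjusted p under 0.05 (30.3% of all genes). Here 86 had a difference below 0, with a median of -0.42 against -0.01 over all genes. The arrays did not overlap in 68 genes that were lower (24.4% of all genes) and 14 that were higher (24.5%). The within-slide medians were -0.38 on slide 1 and -0.43 on slide 2. With slide as a block 6 of the 24 calls held: Aldh1a3, Cyp1b1 and Gsto1 were higher, and Aldh3a1, Aox3 and Sult2a2 lower. None of the 24 held in all 11 fits that left out 1 array: none of the 116 was called without knockout saline 1 (45 at an unadjusted p under 0.05), and 1 higher and 1 lower were called without knockout saline 2. The lower calls became 2 and 1 without knockout OVA 1 and 3, and 6 without any one of the wild-type saline arrays or wild-type OVA 3, which share the estimate of spread. They became 33, 32 and 31 without wild-type OVA 1, wild-type OVA 2 or knockout OVA 2, and the higher calls became 7 without wild-type OVA 1. Without slide 1 none of the 116 was called. The lower calls include Sult2a2, which passed the filter only through saline arrays.

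**Figure D1:**
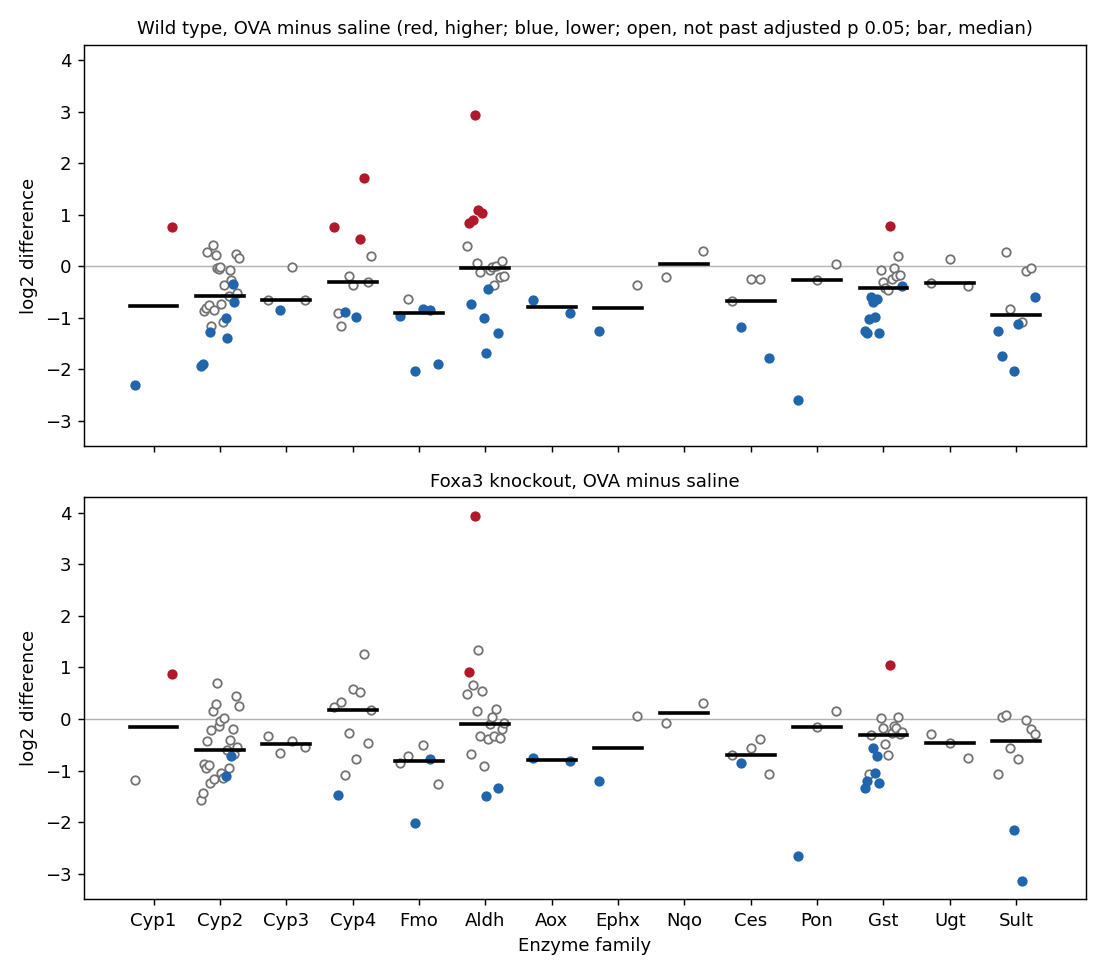
Each point is a measured enzyme gene, placed by family on the horizontal axis and by its log2 difference, OVA minus saline, on the vertical axis, for wild type (top) and Foxa3 knockout (bottom). Red and blue points passed adjusted p 0.05 as higher or lower, open points did not, and the bar is the family median: all 6 Fmo genes lie below 0 in both genotypes, while the 20 Aldh genes spread from -1.68 to 2.93 in wild type.

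The Cyp1 family holds the enzymes best known as targets of the aryl hydrocarbon receptor, and its 2 measured genes went opposite ways. Cyp1a1, which oxidises polycyclic aromatic compounds, measured 3.5, 2.57 and 2.06 in wild-type saline, 0.71, 0.24 and 0.25 in wild-type OVA, 3.03 and 3.19 in knockout saline, and 2.49, 2.33 and 0.95 in knockout OVA. Wild-type OVA arrays were the lowest of all 11, without overlap with any other group. Cyp1a1 fell in wild type by 2.31 ± 0.45 (SE, log2), or 4.95-fold (adjusted p = 0.0135), and measured -1.18 ± 0.50 in knockout (adjusted p = 0.152). The wild-type call was lost without wild-type OVA 2 or 3. By slide the wild-type difference was -3.25, -1.86 and -1.82, and the knockout difference -0.70 and -2.08.

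Cyp1b1, which acts on steroids and aromatic compounds and is found in mesenchymal cells, measured -1.66, -1.67 and -1.92 in wild-type saline and -1.20, -0.94 and -0.84 in wild-type OVA. In knockout the levels were -1.88 and -2.03 after saline and -1.02, -1.01 and -1.20 after OVA. All 6 OVA arrays lay above all 5 saline arrays. It rose by 0.76 ± 0.13 in wild type (adjusted p = 0.00741) and by 0.88 ± 0.14 in knockout (adjusted p = 0.00913), though the knockout call was lost without knockout saline 1 or 2. Cyp1a2 was not measured.

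Because these genes went opposite ways in wild type, their promoters are shown, from RefSeq (GRCm38.p6). Each is the 250 bases before the annotated start, on the gene's strand, chr9:57697363-57697612 (plus strand) for Cyp1a1 and chr17:79715062-79715311 (minus strand) for Cyp1b1. Capitals mark GCGTG, the core letters of the receptor's known binding element, or CACGC where it lies on the other strand.
Cyp1a1: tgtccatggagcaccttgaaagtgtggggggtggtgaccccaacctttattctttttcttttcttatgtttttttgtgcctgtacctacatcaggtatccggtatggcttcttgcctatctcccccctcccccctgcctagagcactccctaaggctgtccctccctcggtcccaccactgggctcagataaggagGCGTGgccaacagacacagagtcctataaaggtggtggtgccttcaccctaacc
Cyp1b1: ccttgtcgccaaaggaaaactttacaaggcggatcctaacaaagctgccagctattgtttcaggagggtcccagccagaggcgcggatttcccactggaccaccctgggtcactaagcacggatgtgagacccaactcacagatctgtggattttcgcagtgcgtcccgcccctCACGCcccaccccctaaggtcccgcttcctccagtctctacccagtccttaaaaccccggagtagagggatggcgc
Both windows hold the letters, at -54 in Cyp1a1 and at -76 in Cyp1b1, the gene that fell as well as the one that rose. Searched on both strands over windows of the same length, GCGTG stood in 28.2% of all 32851 promoters and in 24.1% of the 112 promoters matched to 94 of the 116 genes. It stood in 25% of 40 promoters of genes called lower in wild type and in 57.1% of 7 promoters of genes called higher. The NRF2-type element TGACNNNGC, whose matches can overlap GCGTG, stood in 10.2% of all promoters, 6.25% of those of the measured genes, 2.5% of those called lower and 28.6% of those called higher.

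The Cyp2 family, the largest, had 27 of 34 genes measured. In wild type 7 fell and none rose (Cyp2a4, Cyp2a5, Cyp2c23, Cyp2d9, Cyp2e1, Cyp2j6 and Cyp2j9), with a family median of -0.58. In knockout 2 fell (Cyp2d9 and Cyp2j13) and the median was -0.59. Cyp2a5, which oxidises coumarin and nicotine, measured 3.18, 3.59 and 3.64 in wild-type saline and 1.98, 0.87 and 1.88 in wild-type OVA, and 4.04 and 4.53 in knockout saline and 2.59, 3.53 and 2.42 in knockout OVA. Within each treatment the knockout arrays lay above the wild-type arrays, and within each genotype the OVA arrays lay below the saline arrays. Cyp2a5 fell in wild type by 1.89 ± 0.36, or 3.71-fold (adjusted p = 0.013), and measured -1.43 ± 0.41 in knockout (adjusted p = 0.0621). The wild-type call was lost without wild-type saline 2.

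Cyp2a4, a steroid hydroxylase, followed the same course at 1.68, 1.93 and 1.94 in wild-type saline, 0.33, -0.86 and 0.29 in wild-type OVA, 2.37 and 3.01 in knockout saline, and 0.98, 1.75 and 0.61 in knockout OVA. It fell by 1.93 ± 0.38 in wild type (adjusted p = 0.0135), a call lost without wild-type saline 2. The shown probes of these genes overlap by 38 bases, of which 35 are identical, so the readings cannot be treated as independent. A 30-base stretch of each probe is given, with the 3 differing bases in capitals.
Cyp2a4: aggacacTTCgtagacttgcagaggatatt
Cyp2a5: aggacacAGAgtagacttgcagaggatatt
The probes lie at chr7:23212199-23212258 and chr7:23212221-23212279 in the coordinates of the files (mm7), and the Cyp2a4 probe is also annotated to Cyp2a5. Upstream of the genes, 245 of 249 aligned promoter bases (98.4%) are identical.

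Cyp2d9, a steroid hydroxylase best known from male liver, fell in both genotypes. Its levels were 0.56, 0.67 and 0.58 in wild-type saline, 0.17, -0.88 and -0.50 in wild-type OVA, 0.56 and 0.31 in knockout saline, and -0.67, -0.44 and -0.90 in knockout OVA. No OVA array reached a saline array. The fall was 1.01 ± 0.24 in wild type (adjusted p = 0.0248) and 1.11 ± 0.27 in knockout (adjusted p = 0.0399). The probe also lists Cyp2d22 and Cyp2d34, and the wild-type call was lost without any 1 of the wild-type saline arrays or wild-type OVA 2 or 3.

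Cyp2f2, the naphthalene-activating P450 of mouse club cells, did not pass the test. Its levels were 6.92, 6.85 and 6.80 in wild-type saline and 6.91, 5.76 and 6.16 in wild-type OVA, and 7.07 and 7.27 in knockout saline and 6.21, 6.61 and 5.82 in knockout OVA. Wild-type OVA 1 overlapped the saline arrays. The difference was -0.58 ± 0.29 in wild type (adjusted p = 0.178) and -0.96 ± 0.32 in knockout (adjusted p = 0.0903). Without wild-type OVA 1 Cyp2f2 was called lower in both, at -0.90 in wild type (adjusted p = 0.0221) and -0.96 in knockout (adjusted p = 0.031). Leaving out that array raised the lower calls in wild type over all genes from 1729 to 3155. Cyp2f2 was not called in wild type with slide as a block (adjusted p = 0.223) or without wild-type saline 3 (adjusted p = 0.259). Secreted proteins of the same cells differed among themselves: Scgb1a1 measured 0.21 ± 0.18 and -0.23 ± 0.20 in wild type and knockout (adjusted p = 0.423 and 0.471), and Scgb3a2 -1.33 ± 0.43 and -1.40 ± 0.49 (adjusted p = 0.0611 and 0.0981). Bpifa1 fell by 1.02 ± 0.25 in wild type (adjusted p = 0.0266) and measured -0.26 ± 0.28 in knockout (adjusted p = 0.581). Bpifb1 rose by 1.11 ± 0.22 and by 1.83 ± 0.24 (adjusted p = 0.0134 and 0.00515). Muc5b rose by 0.99 ± 0.18 and by 1.59 ± 0.21 (adjusted p = 0.0112 and 0.00478). The other listed club cell markers, Scgb3a1, Cldn10 and Lypd2, were not called in either genotype.

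Cyp2e1, which oxidises ethanol and small solvents, fell in wild type by 1.38 ± 0.40 (adjusted p = 0.0432), and the call was lost with slide as a block (adjusted p = 0.0661) and without wild-type OVA 2 (-0.90). It lost the call, too, without any array other than wild-type OVA 1, knockout OVA 1 or knockout OVA 2. It measured -1.60, -1.31 and -1.30 in wild-type saline but -1.93 and -1.97 in knockout saline, and -3.08, -2.02 and -2.54 in knockout OVA. Adipocyte markers fell in wild type too, but in knockout their median difference was 0.05. Of 5 listed, 4 were measured and 3 fell in wild type with OVA (Adipoq, Plin1 and Cidec), and none was called in knockout. Their summed level, in which 1 is the 75th percentile, was 19.8 to 23.7 in wild-type saline, 5.32 to 14.5 in wild-type OVA, 9.3 to 12.8 in knockout saline and 8.9 to 12.3 in knockout OVA. Cardiac muscle markers ran similarly, with sums of 48.3 to 66.5, 22.3 to 43.1, 30.2 to 37.95 and 22.2 to 39.6 in the same order of groups. The part of these cells in the Cyp2e1 result was not tested.

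Of the other called Cyp2 genes, Cyp2c23 fell by 1.27 in wild type, Cyp2j9 by 0.68 and Cyp2j6 by 0.34, and all of these calls were lost with slide as a block. With normexp background correction Cyp2c23 measured -0.47 (adjusted p = 0.0746). Cyp2j13 fell by 0.72 in knockout, but its other probe measured 0.04 and the mean of its probes -0.34 (adjusted p = 0.538). The phenobarbital-responsive group moved by like amounts without passing the test, with Cyp2b10 at -0.87 in wild type and -0.88 in knockout, but the probes of Cyp2b9 and Cyp2b13 also list Cyp2b10.

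The Cyp3 family, the main drug oxidases of liver, had 4 of 6 genes measured. All 4 lay below 0 in both genotypes, and only Cyp3a13 passed the test. In wild type this rested on wild-type saline 3: without it Cyp3a16 measured 0.91 and Cyp3a41a 0.67 (adjusted p = 0.571 and 0.627). Within slides, 2 of the 4 genes lay below 0 in wild type on slide 1 and on slide 2. Cyp3a13 measured -1.71, -1.38 and -1.60 in wild-type saline, -2.08, -2.87 and -2.30 in wild-type OVA, -1.53 and -1.28 in knockout saline, and -2.26, -1.73 and -2.18 in knockout OVA. The OVA arrays lay below the saline arrays of the same genotype. It fell by 0.85 ± 0.22 in wild type (adjusted p = 0.032), not called with slide as a block (adjusted p = 0.0584) or without any 1 of the wild-type saline arrays or wild-type OVA 2 or 3. It measured -0.65 ± 0.25 in knockout (adjusted p = 0.119). Cyp3a11 measured -3.72, -2.23 and -3.26 in wild-type saline and -3.51, -3.98 and -3.66 in wild-type OVA, and its probe also lists Cyp3a41a and Cyp3a44.

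All 11 Cyp4 genes, which hydroxylate fatty acids and leukotrienes, were measured, and they split. In wild type 3 rose (Cyp4f18, Cyp4a10 and Cyp4f16) and 2 fell (Cyp4f15 and Cyp4b1). Cyp4f18, an omega-hydroxylase of leukotriene B4 found in neutrophils and other leukocytes, measured 0.84, 1.39 and 2.04 in wild-type saline, 2.71, 3.57 and 3.12 in wild-type OVA, 1.70 and 1.44 in knockout saline, and 2.62, 2.51 and 3.33 in knockout OVA. All OVA arrays lay above all saline arrays. It rose by 1.71 ± 0.34 in wild type (adjusted p = 0.015) and measured 1.26 ± 0.38 in knockout (adjusted p = 0.0734). The call was lost without wild-type saline 2 or wild-type OVA 2 or 3.

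Cyp4a10, a fatty-acid hydroxylase, measured -1.97, -2.07 and -1.68 in wild-type saline and -1.30, -0.95 and -1.20 in wild-type OVA, and -1.73 and -1.78 in knockout saline and -1.65, -1.69 and -1.21 in knockout OVA. It rose by 0.76 ± 0.16 in wild type (adjusted p = 0.0187) and measured 0.24 ± 0.18 in knockout. The test of the difference between these effects did not pass, as in every enzyme gene. The neighbouring Cyp4f15 fell by 0.99 ± 0.23 and Cyp4f16 rose by 0.53 ± 0.16 in wild type. The probes of the 4 measured Cyp4f genes of chromosome 17 lie within 378 kb. Cyp4f15 lay at 0.37 to 0.46 on the wild-type saline arrays and at -0.14, -1.08 and -0.46 on the wild-type OVA arrays. Cyp4b1, an abundant lung P450, measured 5.76, 5.84 and 5.80 in wild-type saline and 5.43, 4.43 and 4.86 in wild-type OVA, a fall of 0.89 ± 0.26 (adjusted p = 0.0454). The calls of Cyp4b1 and Cyp4f16 were lost with slide as a block, those of all 4 of these genes without wild-type saline 1 or 2 or wild-type OVA 2 or 3, and those of Cyp4f15 and Cyp4b1 without wild-type saline 3. The calls of Cyp4b1 and Cyp4f16 were lost without some arrays of the other groups as well.

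The Fmo family oxidises nitrogen and sulfur atoms, and in these data no member rose. All 6 genes measured below 0 in both genotypes, also within each slide, though Fmo6 was at background outside wild-type saline. Fmo1, Fmo4 and Fmo5 were among those that fell in wild type, and Fmo5 fell in knockout, by 0.77 ± 0.20 (adjusted p = 0.0458), a call lost with slide as a block.

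Fmo4, a family member of narrower substrate range, kept its wild-type call without any 1 array. It measured -4.07, -3.96 and -3.91 in wild-type saline, -4.61, -5.0 and -4.82 in wild-type OVA, -4.55 and -4.04 in knockout saline, and -4.75, -4.71 and -4.92 in knockout OVA. Its fall in wild type was 0.83 ± 0.15 (adjusted p = 0.011), against -0.20 with normexp background correction (adjusted p = 0.214) and -0.42 in the authors' value table.

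Fmo5, which also acts as a Baeyer-Villiger oxidase, measured -0.90, -0.86 and -0.82 in wild-type saline and -1.43, -1.94 and -1.74 in wild-type OVA, and fell by 0.84 ± 0.18 (adjusted p = 0.0163). Fmo1 measured 2.88, 2.86 and 2.93 in wild-type saline and 2.16, 1.63 and 1.98 in wild-type OVA. It fell by 0.96 ± 0.20 (adjusted p = 0.0168), though its other probe did not pass the test (-0.48, adjusted p = 0.203). Both calls were lost without wild-type saline 2 or wild-type OVA 2 or 3, and that of Fmo1 without wild-type saline 1. Fmo6 was not well above background on any array outside wild-type saline. In the main processing it was at least 1.15-fold lower in wild-type OVA than in wild-type saline, where it had to be high to be kept. With normexp the difference was 0.09. Fmo2, the main lung form, measured -0.63 ± 0.24 in wild type (adjusted p = 0.0953), and -0.85 without wild-type OVA 1 (adjusted p = 0.0239). It was not called with slide as a block (adjusted p = 0.105) or without wild-type saline 3 (adjusted p = 0.228). Its other probes measured -0.78 and -1.04, and the latter passed the test in wild type (adjusted p = 0.0291) and in knockout (-1.19, adjusted p = 0.0413).

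Aldehyde dehydrogenases split evenly in wild type: of 20 genes, all measured, 5 rose and 5 fell, with a median of -0.04. The genes that rose included retinal dehydrogenases, which make retinoic acid, and mitochondrial enzymes of folate and proline metabolism. Aldh1a3, a retinal dehydrogenase, had the largest rise of the 116 genes in both genotypes. It measured -2.70, -2.85 and -2.95 in wild-type saline, -1.02, 1.02 and 0.30 in wild-type OVA, -3.84 and -3.41 in knockout saline, and 0.99, -0.35 and 0.33 in knockout OVA. Every OVA array stood above every saline array. It rose by 2.93 ± 0.49 in wild type, or 7.64-fold (adjusted p = 0.00752), and by 3.94 ± 0.55 in knockout, or 15.4-fold (adjusted p = 0.00581). A second probe measured 3.90 and 3.49, and the knockout call was lost without knockout saline 1.

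Aldh1a2, the other measured retinal dehydrogenase to rise, measured 0.46, 0.59 and 0.41 in wild-type saline, 1.12, 1.84 and 1.18 in wild-type OVA, 0.83 and 0.89 in knockout saline, and 1.51, 1.48 and 1.60 in knockout OVA. It rose by 0.89 ± 0.18 in wild type (adjusted p = 0.0139) and measured 0.67 ± 0.20 in knockout (adjusted p = 0.0665). Aldh18a1, which makes the proline precursor pyrroline-5-carboxylate, rose by 0.85 in wild type and by 0.91 in knockout. Aldh1b1, a mitochondrial form, rose by 1.1 in wild type and Aldh1l2, the mitochondrial formyltetrahydrofolate dehydrogenase, by 1.04, but both calls were lost with slide as a block. Aldh1l2 measured 0.46 in the authors' value table. These 3 calls were lost without wild-type saline 1 or 2 or wild-type OVA 2 or 3, those of Aldh1b1 and Aldh1l2 without wild-type saline 3, and that of Aldh1b1 also without some arrays of the knockout.

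Aldh3a1, a detoxifying form also known as a cornea crystallin and a target of the aryl hydrocarbon receptor, fell in both genotypes. It measured -2.94, -3.25 and -3.58 in wild-type saline, -4.31, -5.32 and -5.19 in wild-type OVA, -3.54 and -4.08 in knockout saline, and -5.38, -5.20 and -5.32 in knockout OVA. The OVA arrays lay below all saline arrays. It fell by 1.68 ± 0.28 in wild type (adjusted p = 0.00717) and by 1.49 ± 0.31 in knockout (adjusted p = 0.0252), and with normexp by 0.65 and 0.71. The knockout call was lost without knockout saline 1 or 2 or knockout OVA 1 or 3. Aldh6a1, of valine breakdown, fell by 1.28 in wild type and by 1.33 in knockout. Aldh2, which clears acetaldehyde, fell by 1.00 in wild type, Aldh1a1, the retinal dehydrogenase of many epithelia, by 0.72, and Aldh3a2, a fatty aldehyde dehydrogenase, by 0.45. The calls of Aldh2, Aldh1a1 and Aldh3a2 were lost with slide as a block, and those of Aldh6a1, Aldh2, Aldh1a1 and Aldh3a2 without any 1 of the wild-type saline arrays or wild-type OVA 2 or 3.

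**Figure D2:**
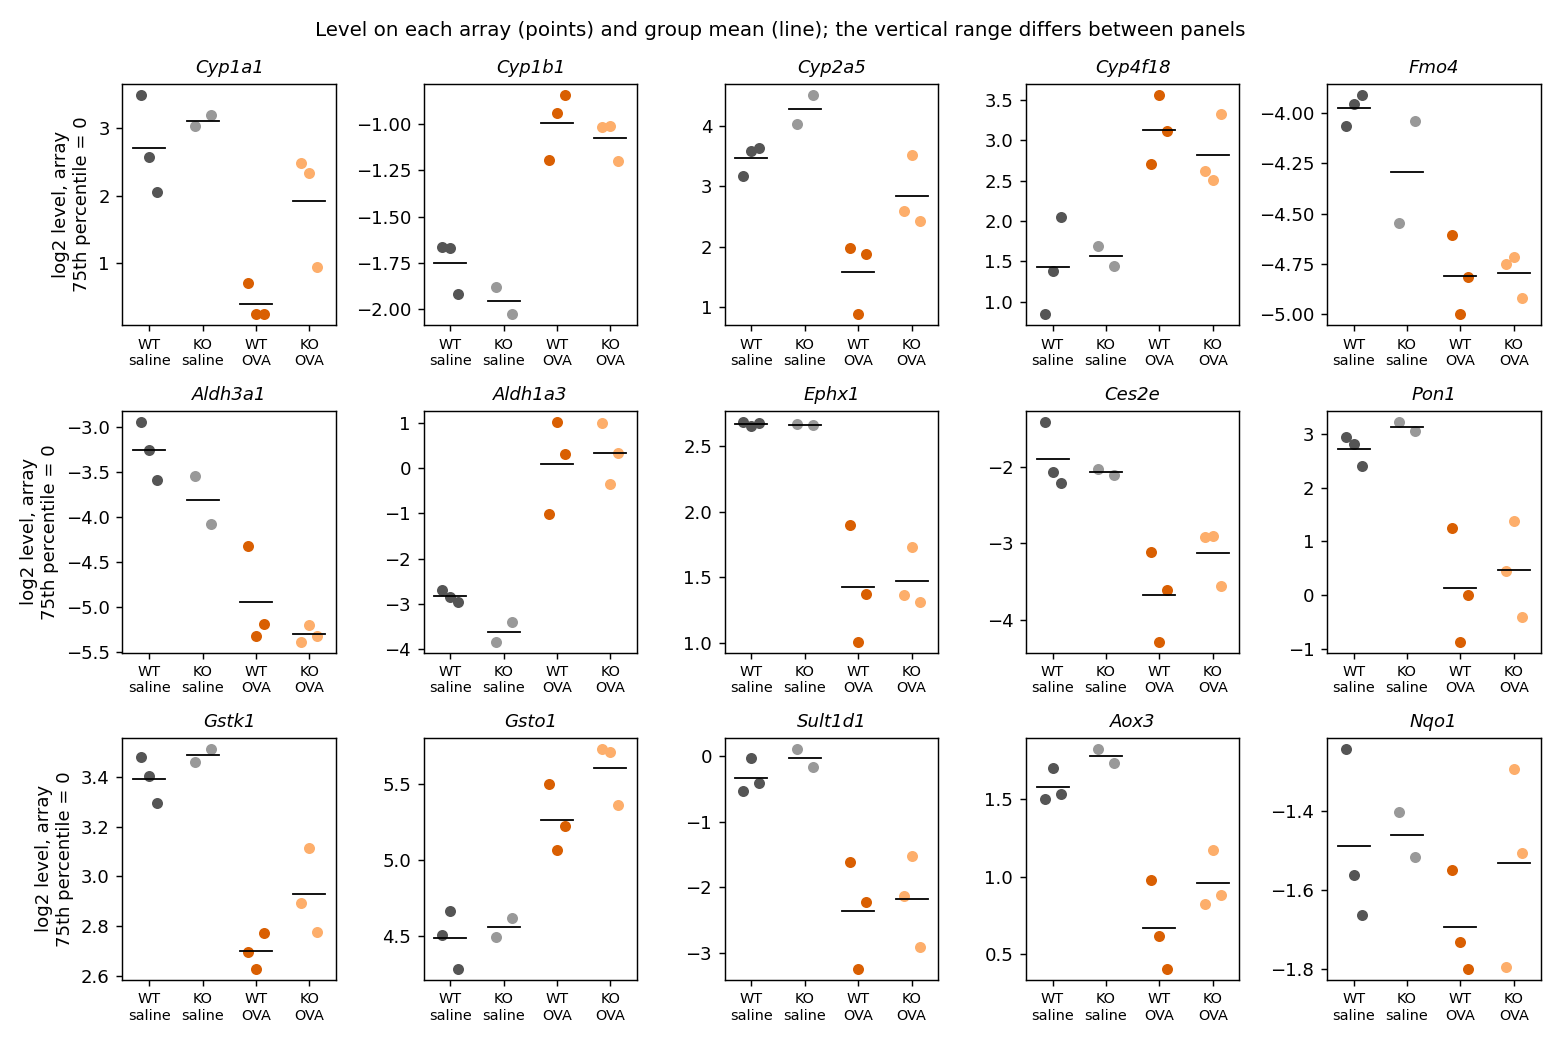
Level of 15 enzyme genes on each array (vertical axis, log2 signal with the array's 75th percentile at 0) by group (horizontal axis, WT for wild type and KO for Foxa3 knockout); points are arrays, lines are group means, and the vertical range differs between panels. For Aldh1a3 the 6 OVA arrays, from -1.02 to 1.02, lie above the 5 saline arrays, from -3.84 to -2.70, whereas for Nqo1 the groups overlap.

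Both measured aldehyde oxidases, which oxidise aldehydes and nitrogen heterocycles, fell in both genotypes. Aox3 measured 1.5, 1.70 and 1.53 in wild-type saline, 0.98, 0.62 and 0.41 in wild-type OVA, 1.82 and 1.73 in knockout saline, and 0.83, 1.17 and 0.88 in knockout OVA. No OVA array reached a saline array. It fell by 0.91 ± 0.16 in wild type (adjusted p = 0.00862) and by 0.82 ± 0.18 in knockout (adjusted p = 0.0282). Aox1, measured at 1.42, 1.80 and 1.37 in wild-type saline and at 1.08, 0.64 and 0.91 in wild-type OVA, fell by 0.65 ± 0.16 (adjusted p = 0.0269) and in knockout by 0.75 ± 0.18 (adjusted p = 0.039). The wild-type call of Aox1 was lost without wild-type saline 1 or 2 or wild-type OVA 2 or 3, and its knockout call with slide as a block.

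Microsomal epoxide hydrolase, Ephx1, which hydrolyses arene and alkene epoxides, fell in both genotypes from a narrow starting range: its 5 saline arrays lay between 2.66 and 2.69. It measured 1.90, 1.01 and 1.37 in wild-type OVA and 1.37, 1.73 and 1.31 in knockout OVA. The fall was 1.25 ± 0.21 in wild type (adjusted p = 0.00733) and 1.20 ± 0.23 in knockout (adjusted p = 0.0192, and 0.0563 with slide as a block). Ephx2, the soluble epoxide hydrolase of lipid epoxides, did not pass the test: it measured 0.36, 0.11 and -0.25 in wild-type saline and -0.08, -0.50 and -0.31 in wild-type OVA (-0.37 ± 0.18).

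Neither quinone reductase passed the test. Nqo1, a classic NRF2 target, measured -1.24, -1.56 and -1.66 in wild-type saline, -1.55, -1.73 and -1.80 in wild-type OVA, -1.40 and -1.52 in knockout saline, and -1.79, -1.29 and -1.51 in knockout OVA. The groups overlapped, and the differences were -0.20 ± 0.16 in wild type (adjusted p = 0.386) and -0.07 ± 0.18 in knockout (adjusted p = 0.831). Nqo2 measured 0.30 ± 0.11 and 0.31 ± 0.12 (adjusted p = 0.0758 and 0.118), with 1.06, 0.97 and 1.11 in wild-type saline and 1.26, 1.44 and 1.36 in wild-type OVA.

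Carboxylesterases hydrolyse esters and lipids. All 5 measured Ces genes lay below 0 in both genotypes, and Ces1g and Ces2e fell in wild type. Ces1g measured -2.59, -2.57 and -2.76 in wild-type saline, -3.58, -4.31 and -3.58 in wild-type OVA, -2.77 and -2.75 in knockout saline, and -3.76, -3.44 and -3.65 in knockout OVA. It fell by 1.18 ± 0.19 in wild type (adjusted p = 0.00707) and by 0.86 ± 0.22 in knockout (adjusted p = 0.0452, and 0.0972 with slide as a block). Ces2e measured -1.41, -2.07 and -2.21 in wild-type saline and -3.11, -4.28 and -3.61 in wild-type OVA, and -2.03 and -2.10 in knockout saline and -2.92, -2.90 and -3.55 in knockout OVA. The OVA arrays lay below all saline arrays. In wild type this was a fall of 1.77 ± 0.32 (adjusted p = 0.0106). In knockout Ces2e measured -1.06 ± 0.36 and was not called. Its other probe passed the test in wild type (-2.40, adjusted p = 0.0026) and in knockout (-1.72, adjusted p = 0.01765). With normexp the wild-type falls of Ces1g and Ces2e were 0.69 and 1.18. Ces1d, the abundant lung esterase, measured 4.20, 4.46 and 4.39 in wild-type saline and 4.05, 3.23 and 3.74 in wild-type OVA. It did not pass the test (-0.68 ± 0.21, adjusted p = 0.0504), but did without wild-type OVA 1 (-0.87, adjusted p = 0.0143). With slide as a block and without wild-type saline 3 it was not called (adjusted p = 0.0715 and 0.115).

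Paraoxonases hydrolyse lactones and organophosphates, and of 3 genes Pon1, the form carried on serum lipoproteins, was the one called at its shown probe. It measured 2.94, 2.81 and 2.40 in wild-type saline, 1.24, -0.86 and 0.01 in wild-type OVA, 3.22 and 3.04 in knockout saline, and 0.45, 1.38 and -0.40 in knockout OVA. The OVA arrays spread more widely than the saline arrays and did not overlap them. Pon1 fell 6.0-fold in wild type (2.59 ± 0.55, adjusted p = 0.0175) and 6.31-fold in knockout (2.66 ± 0.61, adjusted p = 0.035, and 0.0866 with slide as a block). The wild-type call was lost without wild-type saline 1 or 2 or wild-type OVA 2 or 3. Pon2 and Pon3, whose probes lie within 101 kb with that of Pon1, measured -0.27 ± 0.10 and 0.05 ± 0.10 in wild type, and another Pon2 probe measured -0.63 ± 0.17 (adjusted p = 0.0402).

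Among the phase II enzymes, the glutathione S-transferases had 9 of 19 genes lower and 1 higher in wild type, and 6 lower and 1 higher in knockout. The genes that fell in wild type were Gsta1, Gsta2, Gsta3, Gsta4, Gstk1, Gstm1, Gstm2, Gstm3 and Gstz1. Gstk1, a mitochondrial and peroxisomal transferase, had the smallest adjusted p of the 116 genes in wild type (0.00569). It measured 3.48, 3.40 and 3.30 in wild-type saline, 2.70, 2.63 and 2.77 in wild-type OVA, 3.46 and 3.51 in knockout saline, and 2.89, 3.11 and 2.78 in knockout OVA. It fell by 0.69 ± 0.11 in wild type, by 0.67 to 0.71 within slides, and by 0.56 ± 0.12 in knockout (adjusted p = 0.0288, and 0.0702 with slide as a block).

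Gsto1, an omega-class enzyme that reduces thiol adducts, was the Gst gene that rose. It measured 4.51, 4.67 and 4.29 in wild-type saline, 5.50, 5.07 and 5.22 in wild-type OVA, 4.50 and 4.62 in knockout saline, and 5.73, 5.72 and 5.37 in knockout OVA, without overlap. The rise was 0.78 ± 0.16 in wild type (adjusted p = 0.0153) and 1.05 ± 0.18 in knockout (adjusted p = 0.0108). The wild-type call was lost without wild-type OVA 3, and the knockout call without knockout saline 1 or 2. Its neighbour Gsto2 measured -0.25 ± 0.18.

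Alpha-class Gsta2 measured -1.35, -1.29 and -1.63 in wild-type saline, -2.41, -3.35 and -2.40 in wild-type OVA, -1.49 and -1.35 in knockout saline, and -2.65, -2.29 and -2.92 in knockout OVA. It fell by 1.30 ± 0.26 in wild type (adjusted p = 0.0154) and by 1.19 ± 0.30 in knockout (adjusted p = 0.0428). Gsta1 fell by 1.26 and by 1.35. The shown probes of these genes share 28 bases, 27 of them identical, and each also lists the other gene, so they cannot be told apart. The shared stretch is given with the differing base in capitals.
Gsta1: catgtatTcagaaggtattttagatctg
Gsta2: catgtatAcagaaggtattttagatctg
The wild-type call of Gsta2 was lost without wild-type saline 1 or 2, and both knockout calls with slide as a block.

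The mu-class genes form a cluster, with 7 probes within 143 kb at chr3:107716471-107859231 (mm7). All 7 measured below 0 in wild type, and Gstm1, Gstm2 and Gstm3 fell in both genotypes. Gstm3 fell by 1.29 in wild type and by 1.25 in knockout, Gstm1 by 0.99 and by 1.05, and Gstm2 by 0.64 and by 0.72, while Gstm4 measured -0.08 and 0.03. The 3 knockout calls were lost with slide as a block, as were the wild-type calls of Gstm1 and Gstm2. Gstp1, the pi-class enzyme, measured -0.03 ± 0.11 in wild type and -0.14 ± 0.13 in knockout.

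Of the glucuronosyltransferases, 3 of 11 genes were measured and none passed the test in any comparison. Ugt1a6b, of a locus that makes several enzymes from shared exons, measured 2.71, 2.68 and 2.47 in wild-type saline and 2.45, 2.02 and 2.41 in wild-type OVA (-0.32 ± 0.14, adjusted p = 0.128). Its probe also lists Ugt1a1, Ugt1a5 and Ugt1a10. Ugt2b34 measured -4.24, -4.24 and -4.31 in wild-type saline and -4.27, -5.54 and -4.13 in wild-type OVA. Ugt2a1 was well above background on 1 wild-type saline and 1 knockout saline array only.

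Sulfotransferases had 10 of 11 genes measured. In wild type Sult1a1, Sult1d1, Sult1e1 and Sult5a1 fell, and Sult1b1 was called on readings at background. Sult1d1, which sulfates catecholamines and phenols, measured -0.53, -0.04 and -0.42 in wild-type saline, -1.62, -3.25 and -2.24 in wild-type OVA, 0.11 and -0.17 in knockout saline, and -2.13, -1.52 and -2.91 in knockout OVA. All OVA arrays were below all saline arrays. It fell by 2.04 ± 0.44 in wild type, or 4.11-fold (adjusted p = 0.0181), and by 2.16 ± 0.49 in knockout (adjusted p = 0.0333, and 0.0826 with slide as a block). The wild-type call was lost without wild-type saline 2 or wild-type OVA 2 or 3. Sult1a1, the phenol sulfotransferase, fell by 1.26 ± 0.36 and Sult5a1 by 0.60 ± 0.16 in wild type.

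Several sulfotransferases ran down to background after OVA, where only a bound on the fold can be given. The bound sets the brighter group's mean against the higher of each dim array's lowest detected signal and the probe's own reading. It holds for the main background subtraction only and carries no error. With normexp, given below, the differences were smaller or turned sign. Sult1e1, the estrogen sulfotransferase, measured -5.59, -5.41 and -5.67 in wild-type saline and was not well above background on any wild-type OVA array: it was at least 1.97-fold lower (adjusted p = 0.0304). Sult1b1 was well above background on 2 wild-type saline arrays and on none elsewhere, and was at least 1.02-fold lower in wild-type OVA. Sult2a2, which sulfates steroids and bile acids, was well above background on all 5 saline arrays and on no OVA array. In the main processing the bound was 3.11-fold lower with OVA in knockout and 1.51-fold lower in wild type. Since Sult1b1 and Sult2a2 passed the filter through saline arrays alone, their lower level after OVA was set by the filter. No p-value is printed for their OVA differences in either genotype. The wild-type calls of Sult1a1 and Sult1e1 were lost with slide as a block. With normexp the knockout difference of Sult2a2 was -0.62, and in the authors' value table -0.58, both smaller in size than the bound. With normexp the wild-type values of Sult1b1 and Sult1e1 were 0.13 and 0.07. The probes of Sult1b1, Sult1d1 and Sult1e1 lie within 61 kb at chr5:87451685-87512985 (mm7).

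The genotypes shared part of their calls. Of the 41 genes called lower in wild type and the 20 in knockout, 17 were the same, 41.5% of the first and 85% of the second. The knockout-called genes outside the wild-type list were Cyp2j13, Cyp4a12a and Sult2a2. All 4 genes called higher in knockout (Aldh18a1, Aldh1a3, Cyp1b1 and Gsto1) were among the 10 of wild type. Across the 116 genes, which are not independent replicates, the wild-type and knockout OVA differences correlated at r = 0.87 (Spearman 0.86), against 0.81 (0.77) over all genes, with arrays of both genotypes on the same slides. The test of the difference between the OVA effects called none of the 116 genes in limma, 2 had an unadjusted p under 0.05, against 2.57% of all genes (Sult1b1 and Sult2a2, neither well above background on any OVA array), and over all genes 1 was called, which was lower (0.00457%).

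**Figure D3:**
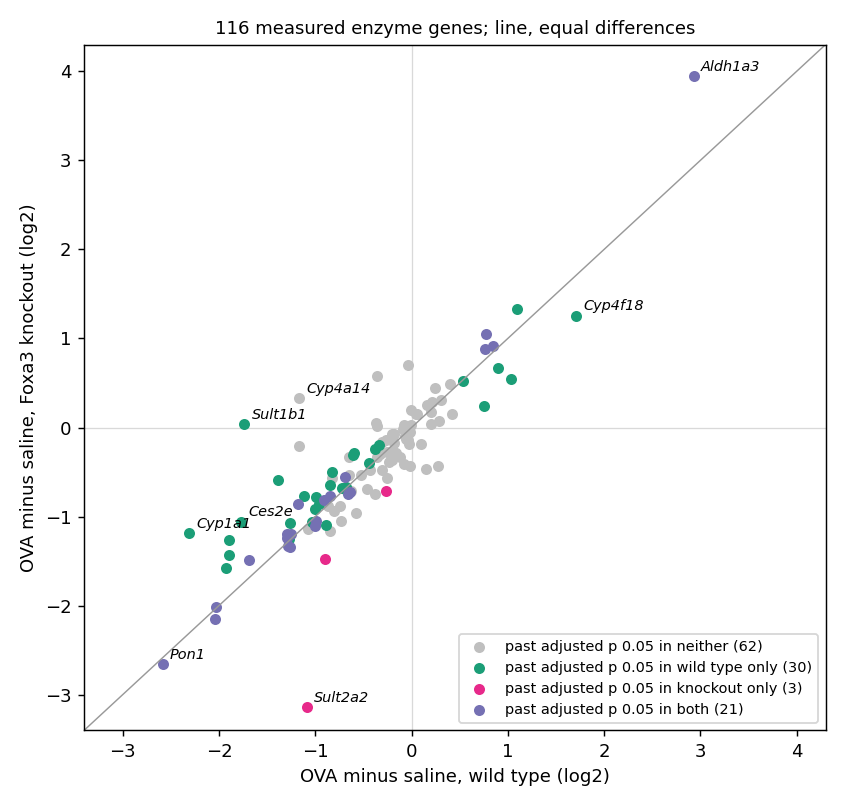
Each point is 1 of the 116 measured enzyme genes, at its log2 OVA-minus-saline difference in wild type (horizontal axis) and in Foxa3 knockout (vertical axis), coloured by which comparison passed adjusted p 0.05; the line marks equal differences. Points labelled by name include Pon1 (-2.59 and -2.66) and Aldh1a3 (2.93 and 3.94); the positions of Sult2a2 and Sult1b1 rest on OVA readings that were not well above background and have no exact size.

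Loss of Foxa3 itself moved none of the enzyme genes past the test. After saline, limma called none of 116 higher (0.0274% of all genes) or lower (0.0686%), 2 had an unadjusted p under 0.05, against 3.26% of all genes (Cyp2j13 and Sult1b1), and the lowest adjusted p was 0.926 (Cyp2j13). After OVA it called none higher (0.0549%) or lower (0.155%), 5 had an unadjusted p under 0.05, against 4.99% of all genes (Cyp1a1, Cyp2a4, Cyp2a5, Aldh7a1 and Sult2a2, the last not well above background in either group), and the lowest adjusted p was 0.496 (Cyp2a5). The groups did not overlap in 22 genes higher and 7 lower after saline, against 10.9% and 10.7% of all genes, and in 7 higher and 2 lower after OVA, against 3.71% and 4.59%. In knockout against wild type after OVA, Cyp1a1 measured 1.52 ± 0.45 (adjusted p = 0.541), Cyp2a5 1.27 ± 0.36 and Cyp2a4 1.20 ± 0.38 (adjusted p = 0.616), with the lowest knockout array above the highest wild-type array in each. After saline Cyp2a5 measured 0.81 ± 0.41, also without overlap, and Cyp1a1 0.40 ± 0.50, with overlap. The readings of Cyp2a5 and Cyp2a4 are not independent. Both genes lie on chromosome 7, as Foxa3 does, and linkage was not tested. The median difference after OVA was 0.04, -0.17 and 0.36 on slides 1, 2 and 3, so its sign differed between slides.

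**Figure D4:**
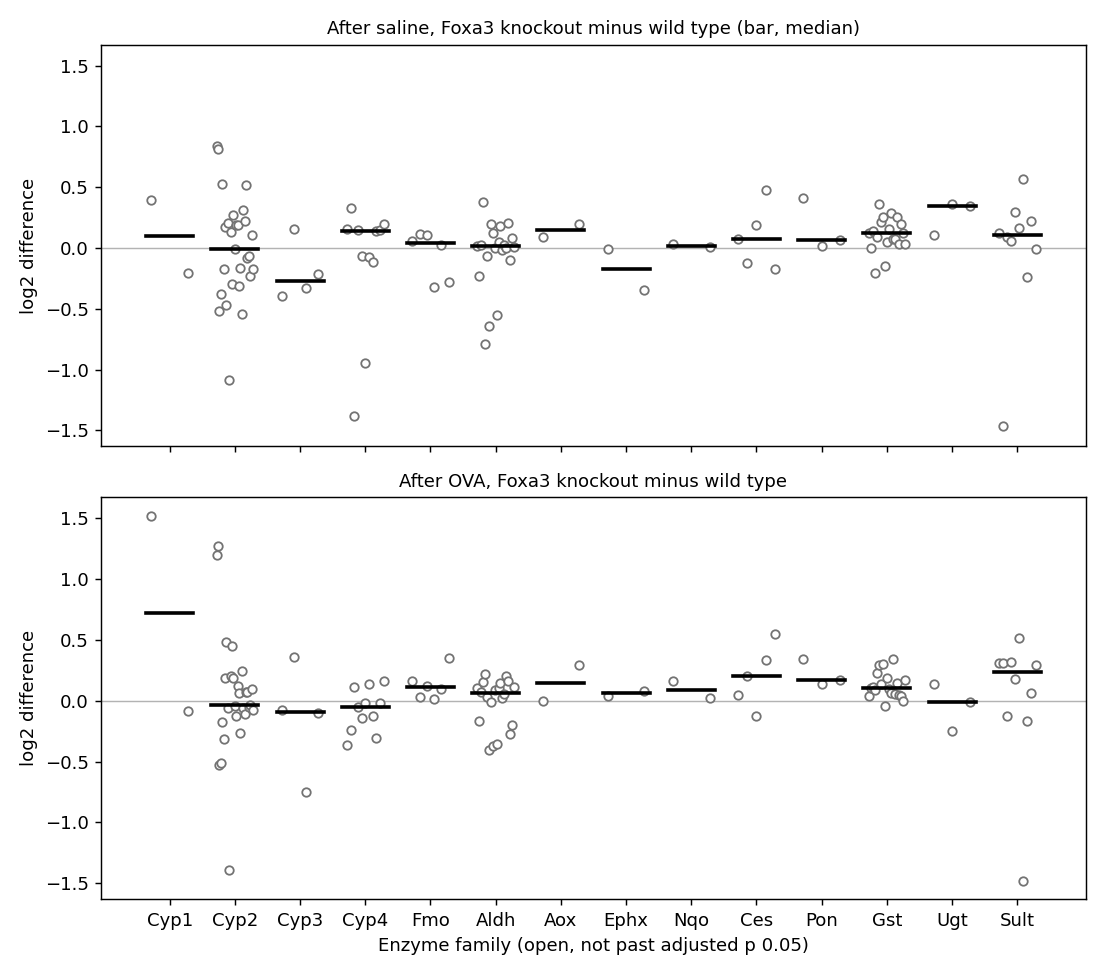
Log2 difference of each measured enzyme gene between Foxa3 knockout and wild type (vertical axis) by family (horizontal axis), after saline (top) and after OVA (bottom); bars are family medians. Every point is open, since none of the 116 genes passed adjusted p 0.05, and the points lie on both sides of 0 in both panels.

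Of 14 regulators of these genes, all measured, only Foxa3 was called in any comparison. With OVA it rose in wild type by 2.01 ± 0.30 (adjusted p = 0.00494). With 2 or 3 arrays a group, a missing call does not show that a regulator was unchanged. Foxa1 measured -0.56 ± 0.19 in wild type and -0.47 ± 0.22 in knockout, Foxa2 -0.34 ± 0.16 and -0.59 ± 0.18, and Rxra -0.39 ± 0.13 and -0.21 ± 0.14. Ahr, the aryl hydrocarbon receptor, measured -0.43 ± 0.21 in wild type (adjusted p = 0.18) and -0.43 ± 0.24 in knockout. Ahrr, its repressor, measured 0.62 ± 0.21 and 0.76 ± 0.24 (adjusted p = 0.0726 and 0.0773), and Tiparp, another of its targets, -0.33 ± 0.10 and -0.20 ± 0.12. Nfe2l2, which encodes NRF2, measured -0.18 ± 0.10 and -0.10 ± 0.11.

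The list of other NRF2 targets had no call downward. Of its 15 genes, all measured, 5 rose and none fell in wild type (Gclc, Hmox1, Me1, Slc7a11 and Tkt, median 0.32). In knockout 5 rose and none fell (Gclc, Gsr, Hmox1, Me1 and Slc7a11, median 0.38). The list holds none of the enzyme genes described above, many of which NRF2 is known to regulate and some of which fell. It therefore does not give the direction of NRF2 targets as a whole. Slc7a11, the cystine transporter that feeds glutathione synthesis, rose by 2.54 ± 0.48 in wild type (adjusted p = 0.012). It was called higher in knockout too, where it was not well above background on either saline array. Hmox1, heme oxygenase, rose by 1.15 ± 0.31 and by 1.39 ± 0.35, and Gclc, of glutathione synthesis, by 0.83 ± 0.24 and by 1.16 ± 0.27. Of the partner enzymes and transporters, 26 of 28 were measured. In wild type 1 rose, the thiopurine methyltransferase Tpmt, and 6 fell: the electron donors Por (0.60), Cyb5a (0.56) and Cyb5r3 (0.47), glutathione synthetase Gss (0.33) and the efflux pumps Abcb1a (0.86) and Abcg2 (0.54). In knockout Abcc3 fell by 0.82.

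Markers of other cells moved in the same comparisons, and their part in the enzyme results was not tested. Macrophage markers were 7 of 8 higher in wild type and 4 of 8 in knockout, while Marco measured -0.52 and -0.46. Their summed level ran from 108 to 128 in wild-type saline, 217 to 231 in wild-type OVA, 127 to 147 in knockout saline and 190 to 203.5 in knockout OVA. Chil3 had the highest signal in this sum. It rose by 0.77 in wild type (adjusted p = 0.0061) and measured 0.30 in knockout (adjusted p = 0.171). Endothelial markers were 4 of 8 lower in wild type and 1 of 8 in knockout, with sums of 162 to 195 and 119 to 166 in wild-type saline and OVA and 172 and 126 to 144 in knockout. Of 8 club cell markers 2 rose (Bpifb1 and Muc5b) and 1 fell (Bpifa1) in wild type, and 2 rose in knockout, with sums of 431 to 482 and 291 to 523 in wild-type saline and OVA and 480 to 517 and 304 to 426 in knockout. Of 8 alveolar type II markers 1 rose (Sftpd) and 1 fell (Abca3) in wild type, with sums of 573 to 614 and 690 to 834, and none was called in knockout, with sums of 698 to 785 and 678 to 759. Fibroblast markers were 2 of 6 higher in both genotypes, the collagens Col1a1 and Col1a2, with 1 lower in wild type (Pdgfra). Their medians were below 0, at -0.32 in wild type and -0.18 in knockout. Pdgfra, Tcf21 and Dcn measured below 0 in both genotypes, and Lum in wild type only. The sums, led by the signal of the collagens, were 85.3 to 87.0 and 112 to 139.5 in wild-type saline and OVA. In knockout they were 69.3 to 74.7 and 91.1 to 117. Both measured eosinophil markers rose in both genotypes. Of 6 lymphocyte markers 2 rose in wild type, and 1 of 4 cardiac muscle markers fell in wild type. None of the 5 alveolar type I markers was called with OVA in either genotype, but their medians were -0.55 and -0.57 and their sums did not overlap, at 139 to 145 and 93.4 to 134 in wild-type saline and OVA and 145 to 160 and 94.0 to 137 in knockout. None of the 6 measured ciliated cell markers was called, with medians of -0.24 and -0.19 and sums of 18.1 to 19.9 and 12.6 to 21.1 in wild type and 17.7 to 21.5 and 15.2 to 19.5 in knockout.

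Some P450 genes known from liver were highest on wild-type saline 3, the array with the high albumin signal. Of the 116 genes 6 were at least 2-fold above the next array there (5.17%, against 0.137% of all genes): Cyp2c29, Cyp2c40, Cyp2d26, Cyp3a16, Cyp3a41a and Cyp4a14. On the other 10 arrays together 1 enzyme gene stood out in this way, Cyp3a11 on wild-type saline 2. Others known from liver peaked elsewhere, such as Cyp2d9 on wild-type saline 2 and Cyp2d10 on knockout saline 2. Cyp2c40, the member with the widest gap, measured -3.71 on that array and between -9.40 and -6.61 on the others, and Cyp3a41a -2.65 against -7.63 to -4.63. Of 6 hepatocyte markers 4 were measured, all highest on that array, with a summed level of 0.35 to 3.21 in wild-type saline, 0.29 to 0.44 in knockout saline, 0.64 to 0.77 in wild-type OVA and 0.56 to 0.78 in knockout OVA. Apoa1 was not well above background on any OVA array, nor Fgb on any knockout OVA array.

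None of these 6 genes passed the test for OVA. Without wild-type saline 3 the wild-type difference of Cyp2c40 moved from -0.85 to 0.60, that of Cyp3a41a from -0.65 to 0.67, that of Cyp3a16 from -0.02 to 0.91 and that of Cyp2d26 from -0.36 to 0.27. None of these values above 0 passed the test (adjusted p from 0.481 to 0.696). Cyp2c40 and Cyp3a16 were dim on the wild-type OVA arrays, at -6.61 or lower. Cyp4a14 moved from -1.17 to -0.44 and Cyp2c29 from -1.17 to -0.57. Cyp2c29 was not well above background on any wild-type OVA array, so its differences have no exact size. Over all 116 genes the wild-type median was -0.42 without this array, and 87 genes lay below 0.

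**Figure D5:**
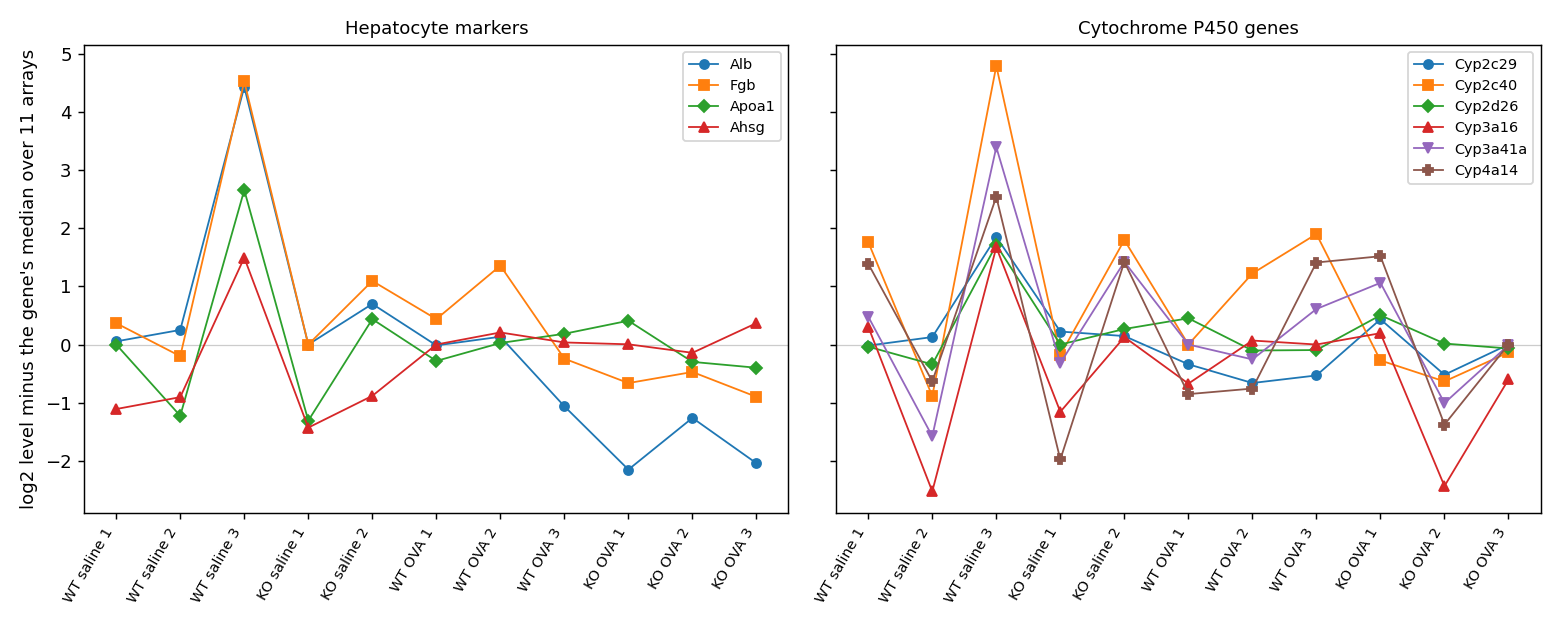
Log2 level of 4 hepatocyte markers (left) and the 6 P450 genes chosen for their peak on wild-type saline 3 (right) on each of the 11 arrays (horizontal axis), minus each gene's median over the arrays (vertical axis). All 10 genes peak on wild-type saline 3, where Alb lies at 0.38 on the scale used in the text.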

How the data were processed

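Per the file headers, each deposited scanner file holds, for every spot, a background-subtracted signal intensity from Agilent's Feature Extraction software, in version 9.5.1.1 by the headers and 9.1 by the submitters' processing notes. The deposited value table holds log2 values that the authors processed; its normalization is not stated. Gene names were updated from RefSeq accessions or symbols where these matched, and coordinates are those of the files (mm7).

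Intensities were averaged over the spots of a probe, taken as log2 and scaled to the 75th percentile of each array. A probe entered if 2 or more arrays had it well above background (71.2% to 78.9% of probes were well above background per array), and 1 probe, the one with the highest mean, stood for each gene. All 11 arrays and 4 groups were fitted together in limma 3.58.1 (R 4.3.3), checked on simulated data, with p-values adjusted over 21870 genes. The number of arrays limits the precision. The enzyme families, gene lists and tests were chosen with earlier results of these data known. Genes to give by array were, per family, up to 3 with the smallest wild-type p, and Cyp1a1, Cyp1b1, Cyp2f2, Nqo1, Ephx1 and Aldh3a1. For some of them only the wild-type arrays, a range or the difference is printed. Cyp2e1, Cyp4b1 and the P450 genes that peaked on wild-type saline 3 were added after their values were seen. Alternatives were other background corrections, scalings, filters and probe summaries, slide and replicate blocks, the authors' table, fewer samples and each array left out. The values of 1 measured enzyme gene are not reported here, though counts and medians include it.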

Additional observations from a re-analysis of the deposited data

How the results depend on the processing

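No enzyme gene was called for genotype or for the difference of the OVA effects under any alternative that was run. The OVA counts depended on the samples and on how the spread was estimated. In wild type, fitting only the groups compared gave 6 higher and 21 lower, and slide as a block 25 lower. Without slide 1 limma called 0 higher and 0 lower, with 43 genes at an unadjusted p under 0.05, 87 below 0 and a median of -0.39. In knockout, the groups compared alone gave 1 higher and 3 lower, slide as a block 3 lower, no filter on dim probes 8 lower, the values the authors deposited 8 higher and 35 lower, and leaving out slide 1 gave 0 and 0, with 15 at an unadjusted p under 0.05 and 89 below 0. Leaving out 1 array gave 3 to 11 higher and 8 to 52 lower in wild type, and 0 to 7 higher and 0 to 33 lower in knockout. Arrays with the same replicate number showed no common deviation (r from -0.41 to 0.34 over 15 pairs). Most of these pairs lay on different slides, and deviations were taken from means of 2 or 3 arrays. Whether the numbers pair the arrays therefore cannot be told. Arrays on the same slide tended to deviate together, with a median r of 0.27 over 15 pairs, against -0.16 over 30 pairs on different slides. The main fit held no slide term. With the replicate block the counts were 7 higher and 31 lower in wild type, and 3 higher and 2 lower in knockout.

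With normexp, the signs of Fmo6 (0.09), Sult1b1 (0.13) and Sult1e1 (0.0704, adjusted p = 0.697) in wild type turned, all at background after OVA. The other called genes kept their sign in every alternative in both genotypes. Normexp moved the wild-type median of all genes from 0.02 to 0.13 and that of the enzyme genes from -0.41 to -0.20. The share of all called genes that were higher was 57.9% in wild type and 78.4% in knockout, against 47.4% and 57.5% in the authors' table and 64.4% and 64% with normexp. Over these settings, quantile normalization and median scaling, it was 16.4% to 23.6% for the enzyme genes in wild type and 13.6% to 18.6% in knockout. Signal over background limits the dim genes: on 15 of the 116 some array was not well above background.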
